A study of Mus musculus with 18 samples.

Results

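Wild type mice that had eaten a high fat diet at any time were compared here with mice that had not, in CD8 T cells sorted from the spleen. The 12 exposed libraries were 6 from mice on the high fat diet for 12 weeks (HFD) and 6 from mice switched (SW), after 6 weeks on that diet, to 6 weeks of normal diet. The 6 unexposed libraries came from mice on the normal diet for 12 weeks (ND), so all 18 of the 18 libraries were used. HFD and SW shared a high fat period, and SW and ND shared the diet eaten when the cells were taken. Poly-A RNA was sequenced from the sorted cells. The labels give no sex, age or strain name beyond the wild type genotype, and do not say that each library came from its own mouse. The p-values therefore measure the spread between these libraries, which may be in part technical.

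CD8 T cells recognise peptides on MHC class I molecules and, once activated, kill target cells and release cytokines such as TNF and interferon gamma. In a resting mouse most splenic CD8 T cells are naive or memory-like, and genes of early activation and of NF-kB signalling respond quickly to receptor signals. Obesity brought on by a high fat diet is widely known to change circulating lipids, insulin and inflammatory cytokines, all of which T cells can sense.

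The libraries held 11947339 to 16398340 counts, and 13690 of 56748 genes passed the filter on low counts. The 10 highest genes took 5.70% to 6.96% of the counts of a library. Cd8a, the CD8 alpha chain that defines the sort, lay between 1369 and 1635 CPM (counts scaled to the library's total) in all 18 libraries. Its difference was 0.01 ± 0.03 (log2, SE). Cd4, which marks helper T cells, averaged at most 0.835 CPM in any diet. HFD replicate 4 stood apart on the first principal component, at 55.0, where no other library exceeded 6.31. Summed erythroid marker transcripts were highest in that library, 347 CPM, and next highest in HFD replicate 1, 167 CPM. Counts of called genes without those libraries, and with the erythroid sum as a covariate, are given with the results. In sorted cells measured in bulk, fewer cells of a type and less RNA per cell cannot be told apart.

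The question was which genes differed after any high fat feeding, whether or not it had ended, and by a like amount in HFD and SW. All differences are log2 fold changes of the mean of HFD and SW against ND, with the standard error, unless another contrast is named. Genes with a Benjamini-Hochberg adjusted p under 0.05 in edgeR's quasi-likelihood test, adjusted over all 13690 genes, are termed called. There were 173 such genes (1.26%), 61 of them higher (0.446%) and 112 lower (0.818%). The differences were small, with a median size of 0.26, and 20 of the 173 reached 1.5-fold. All 173 lay on the same side of ND in HFD and in SW, but this was nearly fixed by the choice of genes on the mean of both diets and by the shared ND libraries. A gene was taken as shared in size when the smaller of its HFD and SW differences was at least 0.5 of the larger and the SW minus HFD contrast had an unadjusted p of at least 0.05. This left 106 shared genes (0.774% of those tested), 36 higher and 70 lower. The other 67 missed the condition on SW minus HFD, 38 of them also the ratio, and 61 of the 67 differed more in HFD than in SW. Of the 106 shared genes 75 also differed more in HFD, with a median ratio of the smaller to the larger difference of 0.766. A p of at least 0.05 for SW minus HFD does not show that the sizes are equal. Nor did a shared gene need a call in SW alone against ND, which 22 of all genes tested had. At the margin of the call, Ap3s2 was just inside with an adjusted p of 0.0493 and Foxk1 just outside with 0.0502. At the margin of the shared set, Kin was inside with a p of 0.0591 for SW minus HFD and Nfkbid outside with 0.0457.

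The count depended on single libraries. It fell furthest without an ND library and rose furthest without HFD replicate 1. With 6 ND libraries against 12 exposed, each ND library weighs more in the contrast, so larger falls were likely by design. The count was 52 without ND replicate 3, 55 without ND replicate 5 and 83 without ND replicate 1. It was 97 without ND replicate 4, 98 without ND replicate 6 and 117 without ND replicate 2. It was 107 without SW replicate 2 and 105 without SW replicate 6, and it rose to 312 without HFD replicate 1. Without HFD replicates 1 and 4 together, a choice made after seeing the data, 348 genes were called and 190 were shared. All 106 shared genes kept their direction when fitted in library numbers 5, 8, 9 and 10 alone, where 26 of them were called. They also kept it in numbers 3 and 4 alone, 2 libraries a diet, where 0 were called by edgeR. These are subsets of the libraries on which the genes were chosen, so the kept direction is no sign of stability. HFD alone against ND gave 535 calls (3.91%), SW alone against ND gave 22 (0.161%), and SW against HFD gave 116 (0.847%).

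**Figure D1:**
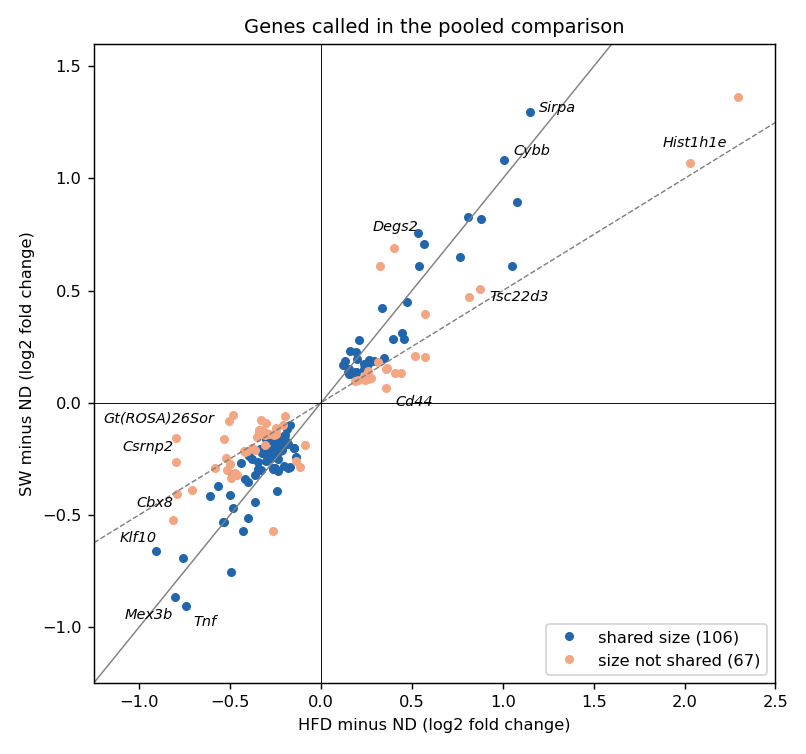
Each point is 1 of the 173 called genes, with its HFD minus ND difference on the x axis and its SW minus ND difference on the y axis (both log2). The 106 shared genes are coloured apart from the other 67. The solid line marks equal differences and the dashed line marks a SW difference of 0.5 times that of HFD. All points lie where both differences have the same sign, which the choice of genes and the ND libraries common to both axes nearly fix.

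Tnf (chr17:35199381-35202007, minus strand, GRCm38), the gene of the inflammatory cytokine TNF, was among the largest decreases shared by both diets. Its level was 13.0 CPM at the lowest, 19.3 at the median and 24.0 at the highest in ND. It was 7.79, 9.86 and 12.2 CPM in SW, and 8.35, 11.1 and 15.1 CPM in HFD. Every SW library lay under every ND library, while the highest HFD library reached into the ND range. The pooled difference was -0.83 ± 0.14 (adjusted p = 0.00599), or -0.74 in HFD and -0.91 in SW. SW minus HFD was -0.16, with a 95% interval from -0.52 to 0.19. Tnf was lower than the ND mean in 12 of 12 exposed libraries.

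Nfkbid (chr7:30421732-30428746, plus strand), which encodes the nuclear inhibitor-like protein IkappaBNS of the NF-kB system, had the smallest p of the genes named by rule. It ranged from 61.1 to 74.9 CPM around a median of 66.3 in ND. The SW libraries ranged from 45.0 to 60.9 CPM around 52.4, and the HFD libraries from 42.4 to 55.1 around 48.0. No exposed library reached the lowest ND library. Such a complete separation of 12 exposed from 6 ND libraries was met in 14 genes of 13690 (0.102%), 13 of them lower in the exposed libraries (0.0950%). The pooled difference of Nfkbid was -0.39 ± 0.06 (adjusted p = 0.000398). It missed the shared set narrowly, with -0.46 in HFD and -0.32 in SW.

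Bcl10, the adaptor that links antigen receptors to NF-kB, fell by 0.22 ± 0.04 on the log2 scale and was under the ND mean in 12 of 12 exposed libraries. Its ND libraries ran from 62.9 to 76.9 CPM, those of SW from 58.2 to 65.0 and those of HFD from 54.8 to 63.4. Rc3h1 encodes roquin-1, an RNA-binding protein that speeds the decay of cytokine and costimulatory mRNAs. It was 94.8 to 129 CPM in ND and fell by 0.28 ± 0.05 (adjusted p = 0.00306), with -0.26 in HFD and -0.29 in SW. One SW library, at 120.0 CPM, lay above the ND mean and the other 11 exposed libraries lay under it. In the list of 30 tested NF-kB and TNF pathway genes, 2 were called lower (Nfkbid and Tnf) and 0 higher, against 0.818% and 0.446% of all genes. The median difference of that list was 0.01, against 0.00 over all 13690 genes, and 17 of the 30 values were above 0 (7126 of 13690 over all genes). In the list of 12 tested cytokine and chemokine genes, 0 were called by edgeR (1.26% of all genes) and the median was 0.03.

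Klf10, a repressor induced early by TGF-beta and by activation, had 10.5, 12.9 and 15.5 CPM at the lowest, median and highest ND library. The same values were 5.82, 8.21 and 10.7 CPM in SW and 5.12, 6.14 and 11.5 CPM in HFD. The highest exposed libraries overlapped the lowest ND libraries, and 12 of 12 were under the ND mean. The pooled difference was -0.78 ± 0.14 (adjusted p = 0.00854). HFD differed by -0.91 and SW by -0.66, and the interval of SW minus HFD ran from -0.12 to 0.61.

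Id3 (chr4:136143497-136145755, plus strand) encodes an inhibitor of E protein transcription factors that marks naive and long-lived memory CD8 T cells. It was 41.7 to 50.3 CPM in ND, 32.5 to 38.4 in SW and 24.1 to 40.6 in HFD, with no overlap between ND and the exposed libraries. The pooled difference was -0.46 ± 0.09 (adjusted p = 0.0147), -0.50 in HFD and -0.41 in SW. Gadd45b, a stress and activation gene that feeds p38 signalling, was 22.1 to 33.7 CPM in ND against 15.3 to 26.2 in SW and 17.2 to 26.5 in HFD. Its pooled difference of -0.48 ± 0.11 had an adjusted p of 0.0411, and the call held in 7 of the 18 fits that left out 1 library, with the largest adjusted p, 0.108, without ND replicate 3. The groups overlapped for Gadd45b, though 12 of 12 exposed libraries were under the ND mean.

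In the list of 35 tested immediate early and activation genes, 3 were called lower (Csrnp2, Gadd45b and Klf10) and 0 higher. Over all genes tested 0.818% were called lower and 0.446% higher. The median of the 35 was 0.02, with 18 values above 0. Among 17 tested genes of the TGF-beta pathway, Id3 and Klf10 fell and Id2 rose, with a median of -0.00. Klf10 belongs to both lists. Csrnp2, a nuclear protein related to an axin-induced factor, was called in this list without being shared. It fell by 0.80 in HFD and differed by -0.27 in SW (adjusted p of SW against ND = 0.446).

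**Figure D2:**
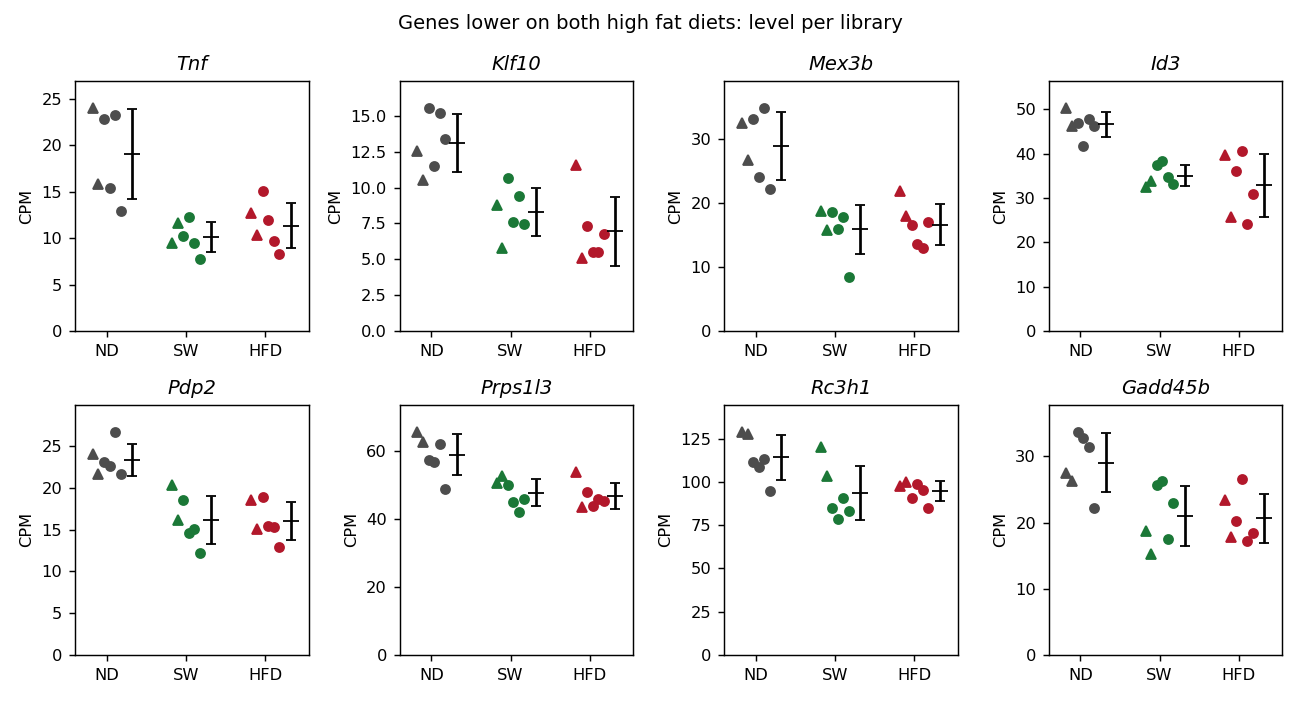
Level in CPM (y axis, from 0) of 8 genes that were lower in both exposed diets, by diet (x axis), with 1 point per library, 6 a diet. Triangles are library numbers 3 and 4, circles are 5, 8, 9 and 10, and black bars give the mean ± SD. For Mex3b, Id3 and Pdp2 every exposed point lies under every ND point, and for Tnf the highest HFD library reaches into the ND range.

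Mex3b (chr7:82867333-82871515, plus strand) encodes an RNA-binding protein with KH domains that acts on mRNAs after transcription. It had 22.1, 29.6 and 34.9 CPM at the lowest, median and highest ND library. It had 8.53, 16.9 and 18.7 CPM in SW and 12.9, 16.8 and 21.9 CPM in HFD. No exposed library reached the ND range, although the highest HFD library, at 21.9 CPM, came close to it. The pooled difference was -0.83 ± 0.14 (adjusted p = 0.00964), -0.80 in HFD and -0.87 in SW. SW minus HFD was -0.06, with an interval from -0.42 to 0.30. Pdp2, a phosphatase that reactivates pyruvate dehydrogenase, also separated the groups fully. It was 21.7 to 26.8 CPM in ND, 12.2 to 20.4 in SW and 13.0 to 19.0 in HFD. Its HFD and SW differences were -0.54 and -0.53, with 0.00 between them and an interval from -0.21 to 0.22. The pooled difference of -0.53 ± 0.09 had an adjusted p of 0.00135.

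Other genes lower in both diets act in varied processes. SW alone against ND was called for Prps1l3 (edgeR adjusted p = 0.0283) and Arl4d (0.0357). It was not called for Slbp (0.0520) or Irf2bpl (0.0540). Prps1l3 fell by 0.32 ± 0.05, from 49.0 to 65.8 CPM in ND to 42.1 to 52.8 in SW and 43.7 to 53.9 in HFD. It is a close copy of the nucleotide synthesis gene Prps1, so its counts may include reads of that gene. Slbp, which binds the stem-loop of histone mRNAs, fell by 0.24 ± 0.05, and SW minus HFD was -0.01 (interval from -0.13 to 0.10). Irf2bpl, a nuclear ring finger protein, fell by 0.23 ± 0.04, with -0.24 in HFD and -0.22 in SW. Arl4d, a small GTPase of the ARF family, fell by 0.46 ± 0.09, from 13.8 to 17.8 CPM in ND to 10.5 to 12.5 in SW and 8.21 to 15.1 in HFD.

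Enpp4, an ectonucleotide hydrolase, fell by 0.32 ± 0.06, and 11 of 12 exposed libraries were under the ND mean. Tuba1b, an alpha-tubulin that is nearly identical to other tubulin genes and may share reads with them, fell by 0.19 ± 0.04. Ccdc71l and Proser1 fell by 0.28 ± 0.06 and 0.25 ± 0.05. Tef, a PAR bZIP factor whose mRNA cycles with the circadian clock, fell by 0.24 ± 0.06 (adjusted p = 0.0365). It was the 1 called gene among 14 tested clock genes, against 1.26% of all genes tested. The median of the 14 was -0.12 with 3 values above 0. In SW alone against ND, Ccdc71l, Proser1, Tuba1b, Enpp4 and Tef were not called, with edgeR adjusted p from 0.0996 to 0.186.

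Sequence upstream of the start site is shown for 4 shared genes, so that what the promoters of genes that fell together hold can be read. Tnf and Mex3b were chosen as the largest decreases, and Arl4d and Irf2bpl because they hold the same element at nearly the same distance from the start. Each run is the 150 bases before the RefSeq start, 5′ to 3′ on the gene's strand (build GRCm38.p6). Capitals mark the cyclic AMP response element (CRE), searched as TGACGTNA on both strands.
Tnf (chr17:35202008-35202157, minus strand): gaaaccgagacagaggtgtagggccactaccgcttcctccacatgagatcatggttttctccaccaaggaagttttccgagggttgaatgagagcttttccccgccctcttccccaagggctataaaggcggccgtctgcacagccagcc
Mex3b (chr7:82867183-82867332, plus strand): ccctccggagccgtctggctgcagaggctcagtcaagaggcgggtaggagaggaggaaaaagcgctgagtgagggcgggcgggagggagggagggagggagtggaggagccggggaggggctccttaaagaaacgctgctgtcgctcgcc
Arl4d (chr11:101665391-101665540, plus strand): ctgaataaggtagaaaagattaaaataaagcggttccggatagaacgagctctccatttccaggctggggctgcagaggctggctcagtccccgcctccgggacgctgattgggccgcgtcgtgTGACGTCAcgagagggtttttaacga
Irf2bpl (chr12:86884815-86884964, minus strand): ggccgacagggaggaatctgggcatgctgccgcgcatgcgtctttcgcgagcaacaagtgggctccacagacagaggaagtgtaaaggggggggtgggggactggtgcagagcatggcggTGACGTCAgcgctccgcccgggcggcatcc
The element begins 26 bases before the start in Arl4d and 30 bases before it in Irf2bpl. Tnf and Mex3b had no match to this element in the 250 bases before the start. Nor had they one to the NF-kB consensus, to the interferon-stimulated response element (ISRE) or to the AP-1 element TGANTCA, all searched on both strands. For the shares that follow, the first promoter listed for each gene was searched, over the 250 bases before the start and a short stretch after it. Over the 59 shared lower genes with a promoter in the table, 3 held the CRE (5.08%), against 509 of 9456 tested genes (5.38%). The NF-kB consensus was in 1 of the 59 (1.69%), against 4.93% of tested genes. Of the 23 shared higher genes with a promoter, 0 held the CRE, 1 held the NF-kB consensus (4.35%), 1 the ISRE (4.35%) and 2 the AP-1 element (8.70%). The AP-1 element was in 3.39% of the shared lower genes against 4.74% of tested genes, and the ISRE in 3.39% against 3.17%. For the CRE and the ISRE, held by 3 and 2 of the 59 shared lower genes, the shares were close to those of all genes tested. These shares describe letters and were not tested.

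Type I interferon genes were a little lower in the exposed libraries as a list. Of 39 tested members 3 were called lower (Rtp4, Irf9 and Irf7) and 0 higher, against 0.818% and 0.446% of all genes tested. The median was -0.14, and 0 of the 39 values were above 0. The median against ND was -0.18 in HFD and -0.14 in SW, with 3 and 2 values above 0. Members of this list rise and fall together within a library, so the 39 values are not separate observations. The summed level of all 40 listed genes ran from 3072 to 3683 CPM in ND, 2782 to 3383 in SW and 2768 to 3431 in HFD. The groups overlapped. The highest library of all was ND replicate 6, and without it the median was -0.09 with 3 values above 0. With the erythroid sum as a covariate the median was -0.09 with 6 values above 0, and Irf9 (adjusted p = 0.0604) and Irf7 (adjusted p = 0.0974) lost their calls.

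Rtp4, an interferon-induced chaperone of membrane receptors, was 52.7 to 77.7 CPM in ND, 42.9 to 54.5 in SW and 39.3 to 54.4 in HFD. It fell by 0.41 ± 0.06 (adjusted p = 0.00119), more in HFD (-0.50) than in SW (-0.33). Irf7, the factor that amplifies the interferon response, fell by 0.26 ± 0.06 (adjusted p = 0.0267), with -0.32 in HFD and -0.21 in SW. Without ND replicate 6 its adjusted p was 0.0625. Irf9, the DNA-binding part of the complex that carries interferon signals to the nucleus, fell by 0.19 ± 0.04 (adjusted p = 0.0156), and its adjusted p was 0.0503 without ND replicate 6. All 3 genes were under the ND mean in 12 of 12 exposed libraries. Irf7 met the condition of like size, while Rtp4 and Irf9 did not.

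**Figure D3:**
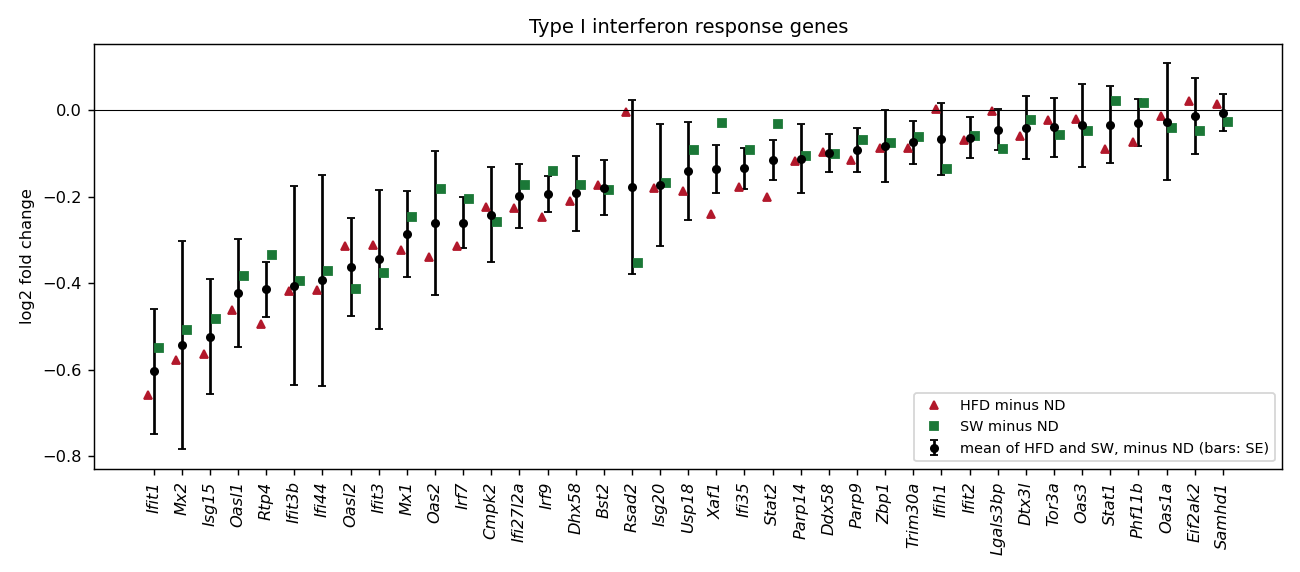
Log2 fold change (y axis) of the 39 tested type I interferon genes (x axis, ordered by the pooled value). Black points are the mean of HFD and SW minus ND with bars of 1 SE, triangles are HFD minus ND and squares SW minus ND; all 39 black points lie under 0, and 3 triangles and 2 squares lie above it.

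The 36 shared genes that were higher had a median difference of 0.23. Pik3ip1 and Rasa3 both encode negative regulators of signalling. Pik3ip1, a transmembrane inhibitor of PI3 kinase that is shed on activation, was 176 to 196 CPM in ND, 196 to 222 in SW and 196 to 253 in HFD. It rose by 0.21 ± 0.04 (adjusted p = 0.0106), with 0.26 in HFD and 0.17 in SW. Rasa3, a GTPase-activating protein for Ras and Rap, rose by 0.15 ± 0.03, with 0.15 in each diet and an interval from -0.08 to 0.08 between them. Its ND libraries ran from 405 to 430.1 CPM, those of SW from 427 to 502 and those of HFD from 447 to 498. For both genes 12 of 12 exposed libraries were above the ND mean.

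Tcf7, which encodes TCF1, the factor of naive and self-renewing T cells, was 1334 to 1483 CPM in ND, 1455 to 1570 in SW and 1446 to 1620 in HFD. It rose by 0.14 ± 0.04 (adjusted p = 0.0381), with 0.15 in HFD and 0.13 in SW. The groups overlapped through ND replicate 3, the highest of the 6 ND libraries, and the call held in 9 of the 18 fits without 1 library, with the largest adjusted p, 0.106, without ND replicate 1. Among 22 tested naive and central T cell genes Tcf7 rose, Id3 fell and the median was 0.05 (1.26% of all genes were called). The 2 called genes of that list therefore moved in opposite directions.

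Most other named increases were small. Gatad2b, a subunit of the NuRD complex, rose by 0.19 ± 0.04, with 0.19 in HFD and in SW. Crtc3, a coactivator of CREB, rose by 0.20 ± 0.04, with 0.25 in HFD and 0.15 in SW. The helicase genes Dhx40 and Recql rose by 0.24 ± 0.05 and 0.21 ± 0.05. Gimap6, a GTPase of lymphocyte survival, rose by 0.16 ± 0.04, as did Trpc4ap (0.16 ± 0.04). Ifitm10 rose by 0.37 ± 0.08, with 0.46 in HFD and 0.28 in SW.

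Thtpa (chr14:55094784-55098986, plus strand), the enzyme that removes a phosphate from thiamine triphosphate, was the 1 gene of 13690 for which all 12 exposed libraries lay above all 6 ND libraries (0.0073%). It was 5.37, 6.62 and 7.26 CPM in ND, 7.92, 8.55 and 10.7 in SW, and 7.27, 9.69 and 10.5 in HFD. The lowest HFD library was barely above the highest ND library. The pooled difference was 0.46 ± 0.11 (adjusted p = 0.0305), 0.47 in HFD and 0.45 in SW. Degs2, a sphingolipid desaturase and hydroxylase, was 4.38 to 8.82 CPM in ND, 7.86 to 10.7 in SW and 6.32 to 12.7 in HFD. It rose by 0.64 ± 0.14 (adjusted p = 0.0213), and the ND range overlapped those of both exposed diets.

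Sirpa and Cybb had the largest fold differences among the named genes that were higher and shared, from very low levels. Sirpa, a receptor for CD47 that is best known from myeloid cells, was 0.240, 0.725 and 1.18 CPM in ND, 1.19, 1.73 and 2.44 in SW, and 1.17, 1.61 and 1.90 in HFD. It rose by 1.22 ± 0.27 (adjusted p = 0.0193). Cybb, the membrane subunit of the phagocyte NADPH oxidase, was 0.401, 1.30 and 1.82 CPM in ND, 1.24, 2.38 and 3.45 in SW, and 1.54, 2.12 and 4.66 in HFD. It rose by 1.04 ± 0.27 (adjusted p = 0.0408), and the call held in 7 of the 18 fits without 1 library, with the largest adjusted p, 0.114, without ND replicate 3.

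Of 7 tested markers of myeloid cells 0 were called by edgeR, against 1.26% of all genes tested. The median difference of the 7 was 0.52, with 5 values above 0. The summed level of the myeloid list was 22.0 to 29.2 CPM in ND, 18.1 to 32.3 in SW and 30.1 to 37.2 in HFD, so each HFD library was above each ND library. With that sum as a covariate the difference was 1.09 for Sirpa (adjusted p = 0.103) and 0.69 for Cybb (adjusted p = 0.282). Ighm, the constant region of the IgM heavy chain, rose by 0.19 ± 0.04 (adjusted p = 0.0159). It was the 1 called gene among 6 tested B cell markers. The sum of all 8 listed B cell markers, tested or not, was 695 to 1063 CPM in ND, 821 to 1042 in SW and 1001 to 1390 in HFD. Of 7 tested erythroid markers 0 were called, with a median of 1.35 and all 7 above 0. The sum of all 8 listed erythroid markers was 18.1 to 45.9 CPM in ND, 35.9 to 94.5 in SW and 16.7 to 347 in HFD. With the erythroid sum as a covariate 162 genes were called and 96 were shared, and with the myeloid sum 77 were called and 37 shared. The part of other cell types in the differences of Sirpa, Cybb and Ighm was not tested beyond these values.

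**Figure D4:**
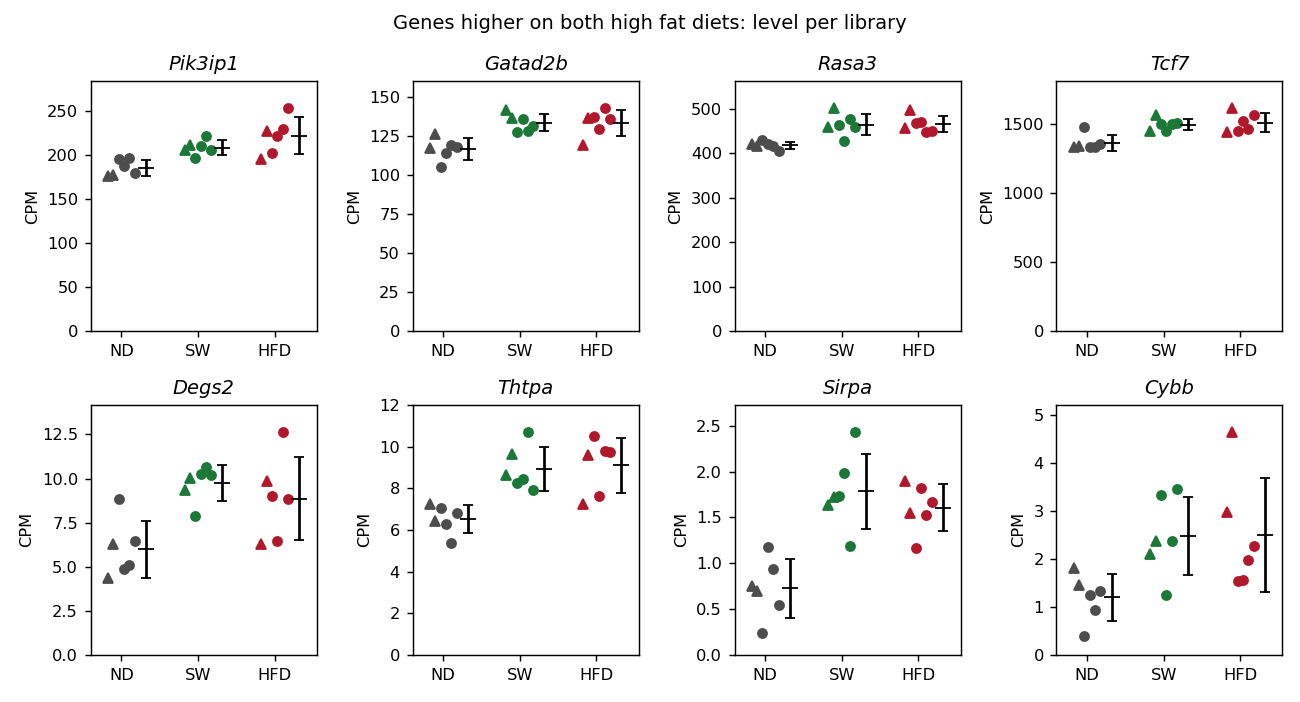
Level in CPM (y axis, from 0) of 8 genes that were higher in both exposed diets, by diet (x axis), with 1 point per library, 6 a diet. Triangles are library numbers 3 and 4, circles are 5, 8, 9 and 10, and black bars give the mean ± SD. Every exposed point of Thtpa lies above the ND points, the other 7 genes overlap, and Sirpa and Cybb stay under 5 CPM.

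**Figure D5:**
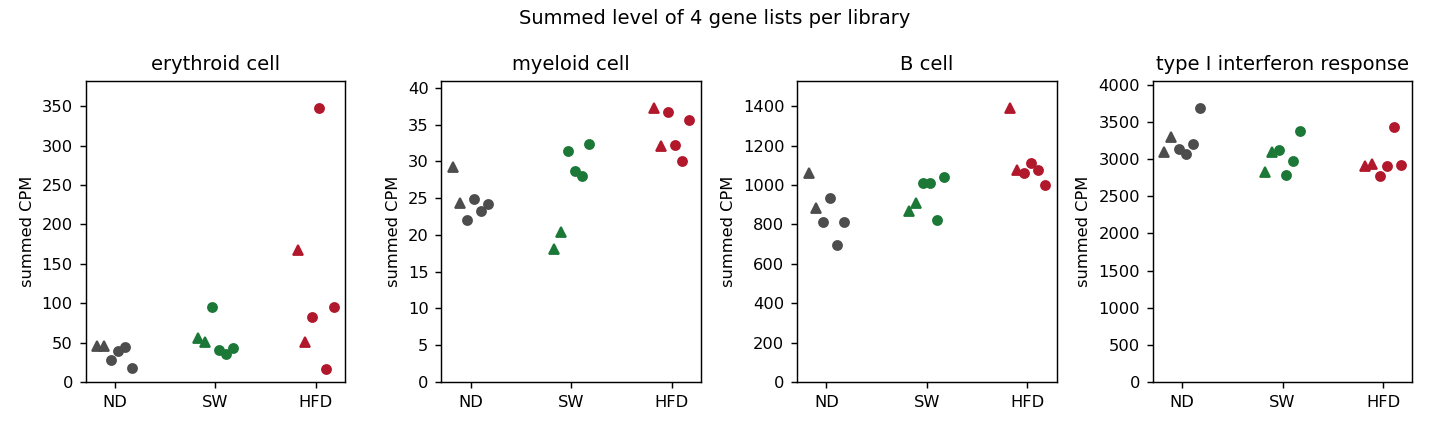
Summed level in CPM (y axis, from 0) of erythroid, myeloid and B cell markers and of type I interferon genes by diet (x axis), with 1 point per library, 6 a diet. Triangles are library numbers 3 and 4 and circles are 5, 8, 9 and 10. The erythroid sum reaches 347 CPM in HFD replicate 4, and the myeloid sums of HFD, 30.1 to 37.2 CPM, all lie above those of ND.

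For 67 called genes the 2 exposed diets were not alike in size. The SW minus HFD contrast itself was called for 11 of them. Tuba4a, an alpha-tubulin gene that the naming rule left out and that was chosen after its values were seen, had the smallest p of all genes tested. It was 155 to 191 CPM in ND, 128 to 148 in SW and 108 to 136 in HFD, so no exposed library reached the ND range. It fell by 0.39 ± 0.05 (adjusted p = 3.67e-05), with -0.48 in HFD and -0.31 in SW, and may share reads with other tubulin genes. Igip, an IgA-inducing protein gene, was 29.6 to 42.7 CPM in ND, 29.3 to 44.7 in SW and 21.2 to 31.9 in HFD. Its HFD difference was -0.50, that of SW was -0.08, and SW minus HFD was 0.42 (interval from 0.28 to 0.56, adjusted p = 0.00626). Tra2a, a splicing regulator, differed by -0.33 in HFD and -0.08 in SW, and SW minus HFD was 0.25 (adjusted p = 0.0102). Timm9, a chaperone of mitochondrial protein import, differed by -0.48 in HFD and -0.06 in SW. The non-coding Gt(ROSA)26Sor differed by -0.80 in HFD and -0.16 in SW, and 10 of 12 exposed libraries were under the ND mean. For Igip, Tra2a, Timm9 and Gt(ROSA)26Sor the SW range largely covered the ND range. For Tra2a, though, the SW median, 145 CPM, lay under the lowest ND library, 149 CPM.

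Cbx8, which encodes a chromodomain subunit of Polycomb repressive complex 1, was 21.8 to 30.2 CPM in ND, 13.1 to 20.9 in SW and 11.9 to 21.3 in HFD, with no overlap between ND and the exposed libraries. It fell by 0.67 ± 0.10 (adjusted p = 0.000577), with -0.82 in HFD and -0.53 in SW, and the interval of SW minus HFD ran from 0.05 to 0.53. The median over 22 tested Polycomb genes was -0.02.

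Cd44, the hyaluronan receptor that is high on memory T cells, was 56.2 to 66.8 CPM in ND, 56.9 to 72.6 in SW and 71.4 to 87.9 in HFD. Its difference was 0.36 in HFD and 0.07 in SW, and SW minus HFD was -0.29 (adjusted p = 0.0170). The pooled call of Cd44 held in 6 of the 18 fits without 1 library, with the largest adjusted p, 0.141, without ND replicate 3. Id2, the E protein inhibitor of effector cells, rose by 0.26 ± 0.06, with 0.36 in HFD and 0.15 in SW. These were the 2 called genes among 39 tested effector and memory genes, against 1.26% of all genes tested. The median of that list was 0.19, with 35 values above 0, and was 0.36 in HFD and 0.02 in SW against ND. Among 15 tested inhibitory receptors 0 were called, with a median of 0.25 pooled, 0.48 in HFD and 0.11 in SW.

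Linker histone genes Hist1h1e and Hist1h1c rose by 1.55 ± 0.34 and 0.64 ± 0.14, the former from 0.341 to 0.698 CPM in ND to 1.67 to 2.64 in HFD. In SW, Hist1h1e ran from 0.351 to 2.32 CPM and overlapped ND, 10 of 12 exposed libraries were above the ND mean, and SW against ND had an adjusted p of 0.340. Both were the called members of 9 tested histone genes, whose median was 0.54 (over all genes tested, 1.26% were called). Most replication-dependent histone mRNAs lack a poly-A tail, and the libraries were made from poly-A RNA. Tsc22d3, the glucocorticoid-induced leucine zipper gene, rose by 0.69 ± 0.15 (adjusted p = 0.0387), with 0.87 in HFD and 0.50 in SW. It ran from 281 to 437 CPM in ND, 479 to 593 in SW and 343 to 857 in HFD. The call held in 6 of the 18 fits without 1 library, with the largest adjusted p, 0.0973, without ND replicate 1. Tsc22d3 and Pik3ip1 were the called genes of 14 tested glucocorticoid and FOXO targets, whose median was 0.18. Atf6, a sensor of unfolded proteins, rose by 0.36 ± 0.09, with 0.52 in HFD and 0.21 in SW, and was the 1 called gene of 19 in its list.

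Lipid and iron genes gave few calls, as did all genes tested (1.26%). Of 20 tested genes of ferroptosis defence and 19 of iron handling 0 were called, with medians of -0.02 and -0.01. Of 16 genes that promote ferroptosis, cell death by lipid peroxidation, Cybb alone was called, and the median was -0.05. Gpx4, the peroxidase that removes lipid peroxides, was 91.6 to 109.8 CPM in ND, 89.9 to 99.7 in SW and 87.9 to 105 in HFD, a difference of -0.03 ± 0.04. Acsl4, which loads membranes with polyunsaturated acyl chains, differed by -0.05 ± 0.05. Tfrc, the transferrin receptor, differed by -0.14 ± 0.05 (adjusted p = 0.207), and Fth1, a ferritin chain, by 0.02 ± 0.04. All 4 genes overlapped between the diets. Fatty acid oxidation (23 tested), cholesterol synthesis (23), glycolysis (19), proliferation (30) and mitochondrially encoded genes (12) had 0 calls each, with medians of 0.01, -0.07, -0.02, 0.08 and 0.07. The 15 tested heat shock chaperones also had 0 calls, and their median was -0.25, with -0.09 in HFD and -0.29 in SW. These 0 counts are from edgeR, which called 1.26% of all genes tested and found 1901 of the 13690 at an unadjusted p under 0.05. A count of 0 in lists of this size is near the 1.26% and says little about the lists.

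The shared lower genes had short genomic spans and few exons as annotated, but not short transcripts. Their median genomic span was 9331 bases, against 18304 for all genes tested and 24123 for the shared higher genes. The median of the largest number of exons in a transcript was 4 for the shared lower genes, 8 for all genes tested and 8.5 for the shared higher genes. Median transcript length was 3118 bases for the shared lower genes and 3033 for all genes tested, and 4.29% of the former had no intron against 10.3% of the latter. The called lower genes that were not shared were alike in this, with a median span of 10449 bases and 5 exons. All 70 shared lower genes were protein coding (100%), against 81.8% of genes tested and 69.4% of the shared higher genes. Median GC content was 48.2% for the shared lower genes, 52.0% for the shared higher genes and 49.3% for all. These are descriptions without a test.

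Of the 50 called genes named by rule, 17 kept their call in all 18 fits that left out 1 library. Those were Nfkbid, Cbx8, Rtp4, Pdp2, Prps1l3, Rc3h1, Csrnp2, Irf2bpl, Tnf, Klf10, Enpp4, Mex3b, Slbp, Pik3ip1, Tra2a, Arl4d and Id3. Of these 17 genes, Pik3ip1 was the only one that rose. The other 33 lost the call in 1 to 12 of the fits, with adjusted p up to 0.141. For all 33 the largest adjusted p came from leaving out an ND library. The design made this outcome likely, since each of 6 ND libraries weighs more in the contrast than each of 12 exposed ones. Of the 106 shared genes, 15 were left out of the ranking that chose the genes to name. They were unnamed gene models, apart from the immunoglobulin gene Ighm, which was named through the B cell list.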

How the data were processed

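The authors deposited raw counts per gene and FPKM values for each of the 18 libraries, with no normalization of the counts, per the file headers. Per the submitters' processing notes, fastp was used with the builds GRCm38 and mm10; for the aligner, counter, annotation and strand setting, the sources used here give none. Reads of overlapping genes on opposite strands therefore cannot be told apart. In 9534 genes each deposited FPKM value equalled the count times a gene and a library factor, within 2.5e-09, so the FPKM served only as an alternative.

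Counts were fitted with edgeR 4.0.16 (R 4.3.3): TMM, filterByExpr, robust quasi-likelihood F test, all 18 libraries, diet plus library number set (3 and 4, carried by replicates 1 and 2 of each diet, against 5, 8, 9 and 10). What the numbers mark is not stated. The contrast was the mean of HFD and SW minus ND. Scripts were tested on simulated data. The common biological coefficient of variation was 0.0983. Since duplicates from PCR were not marked, counting error understates the error. Of 56748 gene IDs 52125 matched GENCODE M21 (GRCm38), the source of symbols, spans and exons; promoters are RefSeq's.

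Genes named were the 14 higher and 14 lower shared genes with the smallest p (mean of at least 1 CPM, named, no receptor segments), up to 3 called genes per list, the 6 called genes with the smallest SW minus HFD p, and 11 fixed names. A few of these genes are not reported here. The comparison, gene lists and named genes were chosen with earlier results of these data known, so they give no independent support. Alternatives used DESeq2 1.42.0, limma 3.58.1, other scalings, filters, covariates and left-out libraries. CD4 T cells and B cells were not analysed here.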

Additional observations from a re-analysis of the deposited data

Results flagged for a closer look

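Among 159 groups of 6 libraries (53 named genes in 3 diets), 5 held a library far from the other 5. Chance gives about 5% of groups, so such libraries were no more frequent than by chance. On the log2 CPM scale, Mex3b was low in SW replicate 6 at 3.12, with the next library at 3.99, which lengthens the spread of a gene whose exposed libraries all lie under ND. Tcf7 was high in ND replicate 3 at 10.53 (next 10.41), the library through which its groups overlap. Tsc22d3 was low in HFD replicate 1 at 8.42 (next 9.33) and low in ND replicate 1 at 8.14 (next 8.56). Igip was low in ND replicate 2 at 4.89 (next 5.23).

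In 6 of the named genes the exposed diets differed from each other by the SW minus HFD contrast in edgeR's quasi-likelihood test. These 6 were named because they had the smallest p in that contrast among called genes, so that they differ was fixed by the choice. The difference was 0.53 for Csrnp2 (adjusted p = 0.0169), 0.25 for Tra2a (0.0102), 0.42 for Igip (0.00626), 0.64 for Gt(ROSA)26Sor (0.0166) and 0.43 for Timm9 (0.00778). It was -0.29 for Cd44 (0.0170). In each of the 6 the HFD libraries were the farther from ND.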

How the results depend on the processing

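The number of called genes moved with the processing. Counts below are in the order any exposure against ND, shared, SW against HFD, HFD against ND and SW against ND, where the reported values were 173, 106, 116, 535 and 22. Diet alone in the model gave 76, 47, 17, 222 and 2. Library numbers 5, 8, 9 and 10 alone gave 79, 40, 23, 201 and 5, and numbers 3 and 4 alone gave 3, 0, 2, 5 and 0, with 786 genes at an unadjusted p under 0.05 in the first. DESeq2 gave 400, 252, 329, 833 and 110. No filter gave 385, 220, 337, 745 and 128. The myeloid covariate gave 77, 37, 25, 140 and 22, and the erythroid covariate 162, 96, 75, 316 and 82. Leaving out HFD replicates 1 and 4, chosen after seeing the data, gave 348, 190, 190, 636 and 48. Limma on log2 FPKM gave 86, 51, 49, 368 and 1 with 0.1 added, and 96, 58, 47, 365 and 1 with 1 added. Limma-voom with sample weights gave 334, 211, 82, 654 and 67. HFD and SW fitted as 1 group gave 82 called and 59 shared. Leaving out 1 library gave 52 to 312, 25 to 168, 39 to 239, 324 to 742 and 0 to 42. The shared count was 80 at a ratio of 0.67, 45 at 0.8 and 135 without the condition on SW minus HFD. Other scalings kept the pooled count between 171 and 193. The cause of these moves was not tested. Replicate numbers were not used as pairs in the reported fit. Of 18 same-number pairs 7 had a correlation of deviations from the diet means over 0.1. Their median was 0.0831, against -0.0103 for other pairs. Within libraries 5, 8, 9 and 10 alone 0 of 12 same-number pairs were over 0.1, with a median of 0.009 against -0.0093. With the replicate block the counts were 229, 134, 138, 598 and 49. None of the 50 named genes that were called changed sign in any alternative run, where 367 refits lost the call and 1333 kept it. The runs reuse all or part of the libraries on which these genes were chosen, so the kept sign is no sign of stability. Fth1 and Cd8a, which were not called, changed sign in some of the runs. Depth limits Sirpa, Cybb and Hist1h1e, with means of 1.37, 2.06 and 1.20 CPM.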
